A study of Mus musculus with 15 samples.

Results

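The wild-type control muscles of a mouse Pdgfrb study are described here as a baseline: 5 poly(A) RNA-seq libraries (controls 1 to 5) of skeletal muscle from 2-month-old males. All genes with a mean normalized count of 10 or more over these 5 libraries were taken, which gave 15376 of the 55536 genes listed. The study's other groups, each of 5 libraries from males of the same age, were a knockout of Pdgfrb and muscle carrying the constitutively active D489V form of the receptor, both said to be myogenin-specific. They enter below only to show whether the control spread recurs in samples that were not used to describe it. The labels used here give no muscle name, strain, litter, Cre status of the controls or collection time, and do not say whether each library is a separate mouse, so the spread between libraries may be partly technical.

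Adult limb muscle is built mainly of multinucleated fibres, each of which expresses mostly a particular myosin heavy chain: Myh7 in slow fibres, and Myh2, Myh1 and Myh4 in fast fibres of increasing shortening speed. Around the fibres lie satellite cells, fibro-adipogenic progenitors, blood vessels with their mural cells, nerve, tendon, immune cells and fat. A normalized count from whole muscle sums over all of these, and fewer cells of a type cannot be told apart from less RNA per cell.

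The totals of the 5 libraries lay between 29815559 and 34433891 normalized counts, and 14837 to 15558 genes reached 10 in a given library. The number of reads behind these totals was not estimated. All 5 libraries had the transcripts of the Y-linked genes Ddx3y (1976 to 2633) and Uty (369 to 452) and at most 3 normalized counts of Xist, the transcript of the inactive X. Pdgfrb itself had 1848, 1673, 1720, 1716 and 1811 normalized counts in controls 1 to 5. It had 958 to 1628 in the knockout and 820 to 1062 in D489V, so neither group overlapped the controls. Control 5 stood apart from the other 4 libraries: genes of B and T lymphocytes were high in it alone. The main results that rest on control 5 are therefore given with and without it.

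The promoters of 4 genes that mark the extremes of this baseline are shown first, as RefSeq sequence of the GRCm38.p6 build from 250 bases before to 50 after the annotated start, in the gene's direction. RefSeq starts differ from the GENCODE gene starts used elsewhere: they lie upstream for Myh4 and Acta1 and downstream for Raph1. Myh4, the fast 2B myosin heavy chain, had the highest mean of any gene, and Acta1, skeletal actin, had the highest level per kilobase of exon. Fos, an immediate early transcription factor, differed several-fold between controls, and Raph1, an adaptor of Ras signalling to the actin cytoskeleton, had the smallest relative spread of any protein-coding gene with a mean of 100 or more. Capitals mark the motifs searched: TATAAA within 45 to 15 bases before the start on the gene's strand, and on both strands CAGCTG (an E-box of the kind bound by myogenic factors), the clock E-box CACGTG, the GC box GGGCGG (whose other strand reads CCGCCC), the CArG box of serum response factor and the MEF2 site.
Myh4, chr11:67237562-67237861, plus strand: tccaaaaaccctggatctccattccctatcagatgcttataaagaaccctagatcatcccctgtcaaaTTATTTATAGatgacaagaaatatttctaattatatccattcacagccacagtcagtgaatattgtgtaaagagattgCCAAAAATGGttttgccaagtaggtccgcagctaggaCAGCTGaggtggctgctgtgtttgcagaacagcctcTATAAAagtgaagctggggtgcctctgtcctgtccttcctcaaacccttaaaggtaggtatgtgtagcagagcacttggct
Acta1, chr8:123894726-123895025, minus strand: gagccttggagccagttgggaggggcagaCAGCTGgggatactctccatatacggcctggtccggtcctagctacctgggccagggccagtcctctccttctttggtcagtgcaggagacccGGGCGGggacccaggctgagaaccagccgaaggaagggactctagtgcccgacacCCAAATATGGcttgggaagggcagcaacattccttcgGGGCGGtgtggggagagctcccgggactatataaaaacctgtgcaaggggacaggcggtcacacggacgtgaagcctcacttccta
Fos, chr12:85473640-85473939, plus strand: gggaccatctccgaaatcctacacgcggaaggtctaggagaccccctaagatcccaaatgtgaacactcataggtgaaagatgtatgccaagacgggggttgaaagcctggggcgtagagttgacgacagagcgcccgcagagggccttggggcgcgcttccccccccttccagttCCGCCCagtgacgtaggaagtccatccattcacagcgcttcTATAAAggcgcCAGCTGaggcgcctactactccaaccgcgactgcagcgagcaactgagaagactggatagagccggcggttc
Raph1, chr1:60566716-60567015, minus strand: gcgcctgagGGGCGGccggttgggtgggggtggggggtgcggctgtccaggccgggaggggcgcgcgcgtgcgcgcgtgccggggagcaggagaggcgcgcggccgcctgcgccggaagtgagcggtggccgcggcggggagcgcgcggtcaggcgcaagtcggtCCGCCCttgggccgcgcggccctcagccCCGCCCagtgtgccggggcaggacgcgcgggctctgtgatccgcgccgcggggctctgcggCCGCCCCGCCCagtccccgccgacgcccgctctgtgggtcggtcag

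The Myh4 window held 1 TATAAA in the range searched, 1 match to CAGCTG, and a match each to the CArG box and the MEF2 site, and only 1 CG dinucleotide. The Acta1 window held 1 CArG box, 1 CAGCTG and 2 GC boxes; its TATAAA begins 7 bases before the annotated start, outside the range searched. The Fos window held 1 match to TATAAA, followed by the E-box CAGCTG, and a GC box GGGCGG. The Raph1 window held 5 GC boxes, of which the last 2 overlap, no TATAAA in its window and 49 CG dinucleotides. Against this, CAGCTG was found in 16.3% of all 32851 promoter windows in the table, the CArG box in 1.63%, the MEF2 site in 3.19%, GGGCGG in 35.7% and TATAAA in 2.14%. The table matched 66 of the 100 most abundant genes, with 91 windows between them: 33.0% held CAGCTG, 7.69% a CArG box and 8.79% a MEF2 site. A match is a stretch of letters and does not show that a factor binds there.

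Transcripts of the contractile machinery of fast fibres dominated every control. The 20 most abundant genes took 40.5, 40.3, 37.6, 38.3 and 35.2% of the normalized count of controls 1 to 5 (38.4 ± 2.14%, SD, n = 5), and the 1000 most abundant took 74.7 ± 1.03%. Myh4 led with 2200064, 2373360, 2647227, 2875640 and 2139728 normalized counts, a 1.34-fold range. Its gene lies at chr11:67238029-67260446 on the plus strand in GRCm38. Acta1 followed with 941798, 1131890, 1132214, 1226080 and 1098091. Both genes varied less than the median of the abundant genes ranked nearest to them, nearly all of lower level. Next in mean normalized count came Atp2a1, the calcium pump of fast fibres (1064180 ± 242888, SD, n = 5), Tnnt3, fast troponin T (862821), and Ckm, muscle creatine kinase (752570). Tpm1 (tropomyosin), mt-Co1 (a mitochondrially encoded cytochrome oxidase subunit), Aldoa (aldolase), Myl1 (a fast myosin light chain) and Pvalb (the calcium buffer parvalbumin) completed the top 10, the last with 434691.

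Per kilobase of exon the order changed, because Myh4 is a long transcript. Acta1 was highest with 720062 ± 67345 normalized counts per kilobase (SD, n = 5). Tnnt3 (545054), Tnnc2 (fast troponin C, 455208), Pvalb (417571) and Myh4 (406783 ± 51545) came next. The gap between Acta1 and Tnnt3 was larger than the SD of Acta1, whereas Pvalb and Myh4 differed by less than the SD of Myh4. A 57-base annotated microRNA, Gm23935, also reached the 10 highest per kilobase (312954). It ranked 147 by mean normalized count (17838), so its place per kilobase rests on its very short annotated length.

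The 13 fast fibre genes listed took 23.5 ± 0.857% of the normalized count, the glycolysis and phosphocreatine genes 8.33 ± 0.312% and the 20 sarcomere genes 10.2 ± 0.424%. These shares moved little between libraries. The shares of the 13 proteins of the mitochondrial genome and of the 10 slow fibre genes moved much more. The first was 7.003, 5.95, 4.68, 3.41 and 2.92% in controls 1 to 5, and the second 0.0630, 0.168, 0.118, 0.263 and 0.656%.

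All 5 muscles were fast by their myosin. Of the adult myosin heavy chain transcripts, per kilobase of exon, Myh4 made up 91.8, 93.0, 88.7, 88.8 and 86.1% (89.7 ± 2.77%, SD, n = 5; 90.6% without control 5). Myh1, the 2X isoform, made up 5.01 to 8.93%. Myh2, the 2A isoform, made up 1.27, 1.33, 1.98, 3.32 and 4.53%, and slow Myh7 0.167, 0.605, 0.358, 0.816 and 2.49%. Control 5 had the highest share of both Myh2 and Myh7 and the lowest of Myh4, and control 1 the lowest Myh2 and Myh7. Embryonic Myh3 (160 to 595 normalized counts) and perinatal Myh8 (200 to 433) were present at low levels.

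**Figure D1:**
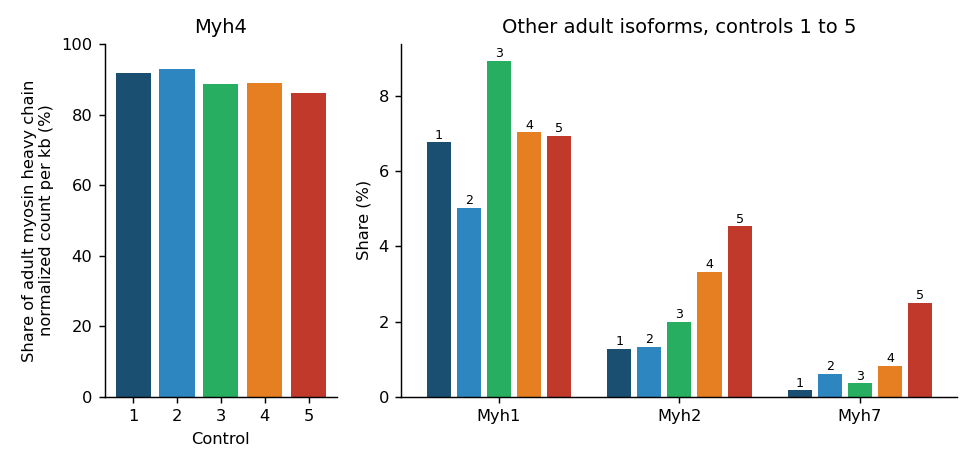
Share of each adult myosin heavy chain in the summed normalized count per kilobase of Myh1, Myh2, Myh4 and Myh7, in percent, with 1 bar per control library. Myh4 lies between 86.1 and 93.0% in all 5, while Myh7 runs from 0.167% in control 1 to 2.49% in control 5.

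To compare genes of different level, the SD of log2(normalized count + 1) over the 5 controls was divided by the running median SD of the genes nearest in mean (150 on either side). At both ends of the ranking this window is cut short, so the most abundant genes are compared mainly with less abundant ones. A gene with a ratio of 2 or more is called variable here and a gene with 0.5 or less stable; these are descriptions, with no test. The median SD over all 15376 genes was 0.28 on the log2 scale, a coefficient of variation of 19.1%. It was 0.61 for genes with a mean of 10 to 30 and 0.20 for those from 300 to 1000. Poisson counting alone would give 0.35 and 0.06 at these levels if a normalized count were a read. By this rule 1852 genes (12%) were variable and 1666 (10.8%) stable. The variable genes closest to the threshold had a ratio of 2.00, as did the closest genes below it, so the line separates no distinct classes. Among genes above 0 in every control, 487 had a highest library at least 10 times the lowest. A further 120 genes were at 0 in at least 1 control, and no ratio was formed for them.

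**Figure D2:**
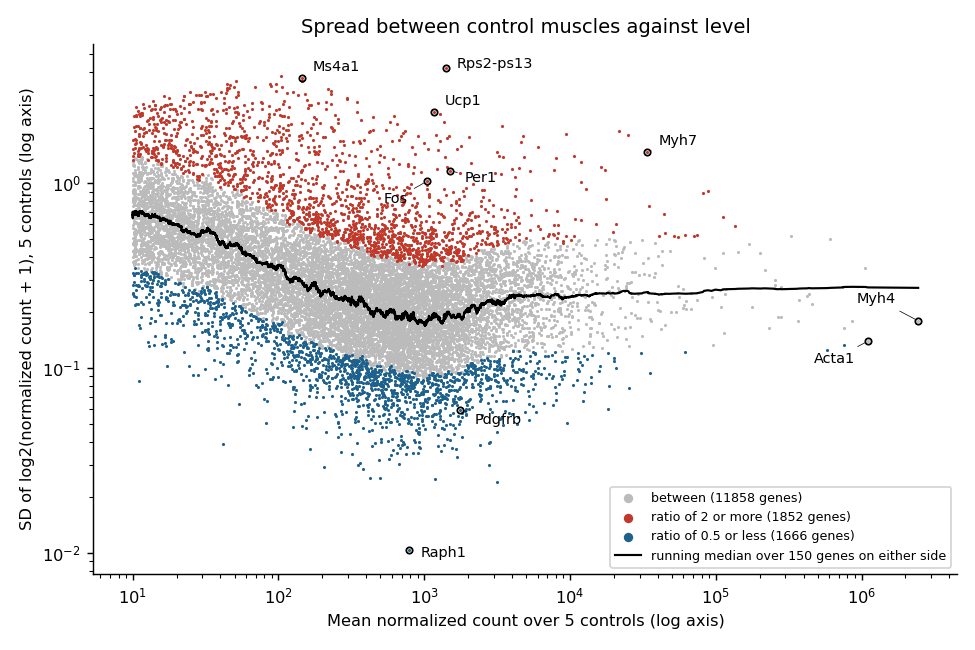
Each point is a gene. The x axis gives its mean normalized count over 5 controls and the y axis the SD of its log2 values, both log axes. The black line is the running median over 150 genes on either side, with fewer at both ends. Myh7, Ucp1 and Ms4a1 lie far above the line, Myh4 and Acta1 below it, and Raph1 at the bottom.

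Slow fibre genes were variable without exception: 10 of 10, against 12% of all genes, with a median ratio of 4.83. Myh7, the slow myosin heavy chain, had 5749, 22084, 15314, 37808 and 88845 normalized counts. Tnni1, slow troponin I, had 657, 2366, 1258, 3442 and 8461, and Tnnt1, slow troponin T, 2043, 4992, 2749, 8638 and 21783. The 3 genes kept the same order of libraries: control 1 lowest, then 3, 2 and 4, with control 5 highest. Atp2a2, the calcium pump of slow fibres, ranged from 2503 to 27427, and Sln, which encodes the pump inhibitor sarcolipin, from 37 to 567. Without control 5, 9 of the 10 remained variable and Myh7 had a ratio of 4.31. Of the 13 fast fibre genes Myh2 was variable (36052, 40294, 70151, 127628 and 133491, ratio 3.45), and without control 1 so was Myh1 (2.14). Myh2 was high in controls 4 and 5, which also had the highest Myh7.

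Adipocyte genes showed the largest list median. All 10 were variable, against 12% of all genes, with a median ratio of 8.52, and all 10 remained so without control 5. Ucp1, the uncoupling protein of brown and beige fat (chr8:83290352-83298452), had 1653, 1567, 2382, 146 and 56 normalized counts, a 42.5-fold range. Adipoq, which encodes adiponectin, had 2580, 1824, 2214, 179 and 351, and Plin1, a lipid droplet coat protein, 3129, 2289, 4087, 273 and 412. In each of the 3, controls 4 and 5 lay far below controls 1, 2 and 3 without overlap. Retn, the adipokine resistin and another list member, had 1795, 817, 462, 53 and 107. Adrb3, the adipocyte adrenergic receptor, which is not in the list, had 1506, 884, 585, 60 and 45. The 10 adipocyte genes together made up 0.0255 to 0.263% of the normalized count.

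Lymphocyte genes were near the floor in 4 controls and high in control 5. Ms4a1, the B cell antigen CD20, had 6, 8, 1, 0 and 709 normalized counts. Pax5, the transcription factor of B cell identity, had 8, 11, 6, 3 and 736. Cd3d, of the T cell receptor complex, had 6, 1, 0, 1 and 212. Ighd, the heavy chain of naive B cells, had 9, 16, 7, 4 and 1116, and Marco, a scavenger receptor of macrophages in lymphoid tissue, had 2, 0, 1, 0 and 517. All 10 listed genes were variable, against 12% of all genes, with a median ratio of 6.29. Without control 5 only 6 of the 10 reached a mean of 10, and 1 of them was variable. Ighm, the IgM heavy chain, was the exception, with 1954, 2388, 4137, 1113 and 4338 and at least 1113 normalized counts in every library. The summed level of the 10 genes was 1161 to 4203 in controls 1 to 4 and 9652 in control 5, mostly Ighm in the former. Control 5 was also the library with the highest slow fibre level; whether lymphoid tissue bears on that was not tested.

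**Figure D3:**
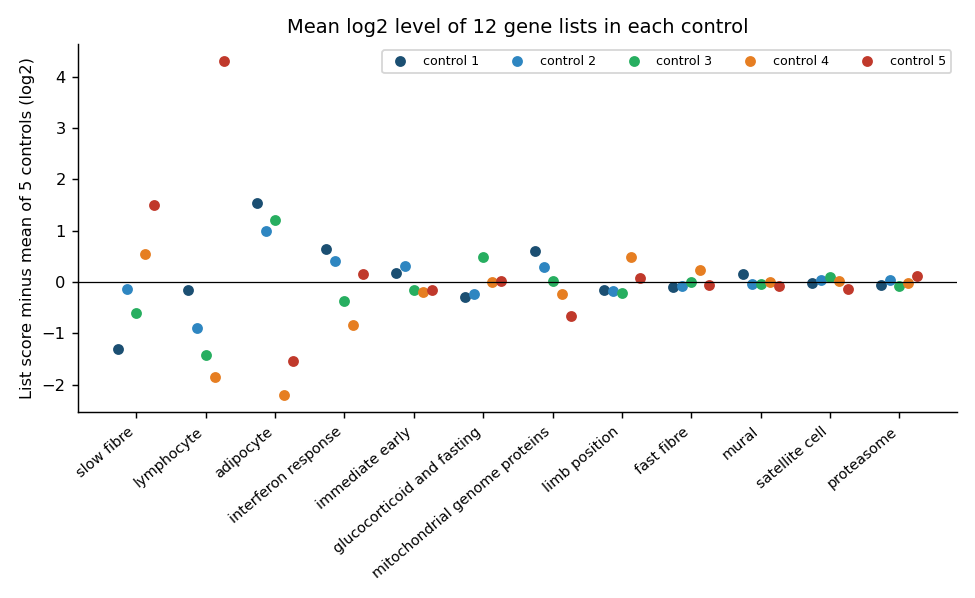
For 12 gene lists, the mean log2(normalized count + 1) of the list in each control minus its mean over the 5 controls. The lymphocyte score of control 5 and the adipocyte scores of controls 4 and 5 lie far from zero, while fast fibre, mural, satellite cell and proteasome scores stay close to it.

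Genes of the resident cells of muscle were closer to the background. None of the 8 satellite cell genes and none of the 10 mural genes was variable, against 12% of all genes. Pax7, which marks satellite cells, had 167, 185, 159, 178 and 122 normalized counts, and Myf5, a myogenic factor of these cells, 45, 45, 50, 41 and 52. Rgs5, a pericyte marker, had 12345, 11497, 11637, 11305 and 10225 (ratio 0.40, and 0.57 with equal totals). Among fibro-adipogenic progenitor genes, Dcn, the proteoglycan decorin, had 10004, 9549, 9567, 8658 and 8348 and Col1a1, a fibrillar collagen chain, 48335 to 72722. Ly6a, the Sca-1 antigen, was 1 of 2 variable genes of the 10 (1804, 1516, 942, 749 and 1028, ratio 2.68).

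By number of variable genes, vessels (2 of 10) and macrophages (1 of 10) were close to the 12% of all genes. Of 10 endothelial genes, Pecam1 (CD31) had 3084 to 4061, with a ratio of 0.71. Egfl7, a protein secreted by endothelium, had 2663, 2189, 1070, 1273 and 1656 (ratio 2.86), and Emcn, the sialomucin endomucin, 739, 658, 382, 382 and 398 (2.36). Both were highest in controls 1 and 2, and so was the endothelial list as a whole. Its 10 genes together took 0.0930, 0.0769, 0.0622, 0.0536 and 0.0644% of the normalized count in controls 1 to 5. Of the macrophage genes, C1qa, a complement chain, had 244 to 409, highest in control 5, and Lyve1, a marker of resident macrophages, 112 to 129. The haemoglobin gene Hbb-bs had 3166 to 4489, and none of the 6 erythroid genes was variable. Neutrophil genes were barely detected: of 6, only 2 had a mean of 10 or more, and Ly6g had at most 1 normalized count.

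Nerve and tendon genes lay between these extremes. Of the 10 neuromuscular junction genes 3 were variable, against 12% of all genes. Among them was Musk, the kinase that organises the synapse, with 32, 47, 98, 134 and 229. The acetylcholine receptor subunit Chrne had 733 to 874. S100b, a Schwann cell gene, had 289, 233, 125, 76 and 91 (ratio 3.13). Of 7 tendon genes, Kera, the proteoglycan keratocan, had 1244, 1236, 1176, 813 and 585; its ratio of 2.83 fell to 1.60 without control 5. Mkx, a transcription factor of tendon, had 70 to 81 in all 5.

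PDGF signalling genes had the lowest median ratio of the lists in the controls, just below the proteasome genes. The receptors are tyrosine kinases that bind dimeric PDGF ligands; PDGF-B from endothelium acts on mural cells through the beta receptor, and the alpha receptor marks fibro-adipogenic progenitors. Of the 7 family members none was variable, against 12% of all genes, and 2 were stable, against 10.8%; so few genes cannot be told from these shares. Their median ratio was 0.60, against 0.61 for the proteasome. It did not stay low in the other groups, at 1.62 in the knockout and 1.01 in D489V. For the proteasome these medians were 0.69 and 0.84. The ligand gene Pdgfb had 1537, 1642, 1552, 1613 and 1635 (ratio 0.23), and the receptor gene Pdgfrb, with the values given above, a ratio of 0.31. The second receptor gene, Pdgfra, had 578 to 697. The ligand gene Pdgfa was the most variable member, with 1834, 1674, 1042, 1380 and 1164; its ratio of 1.76 was 2.01 without control 1 and 2.16 without control 4. When the libraries were rescaled to equal totals the ratio of Pdgfrb was 0.74.

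**Figure D4:**
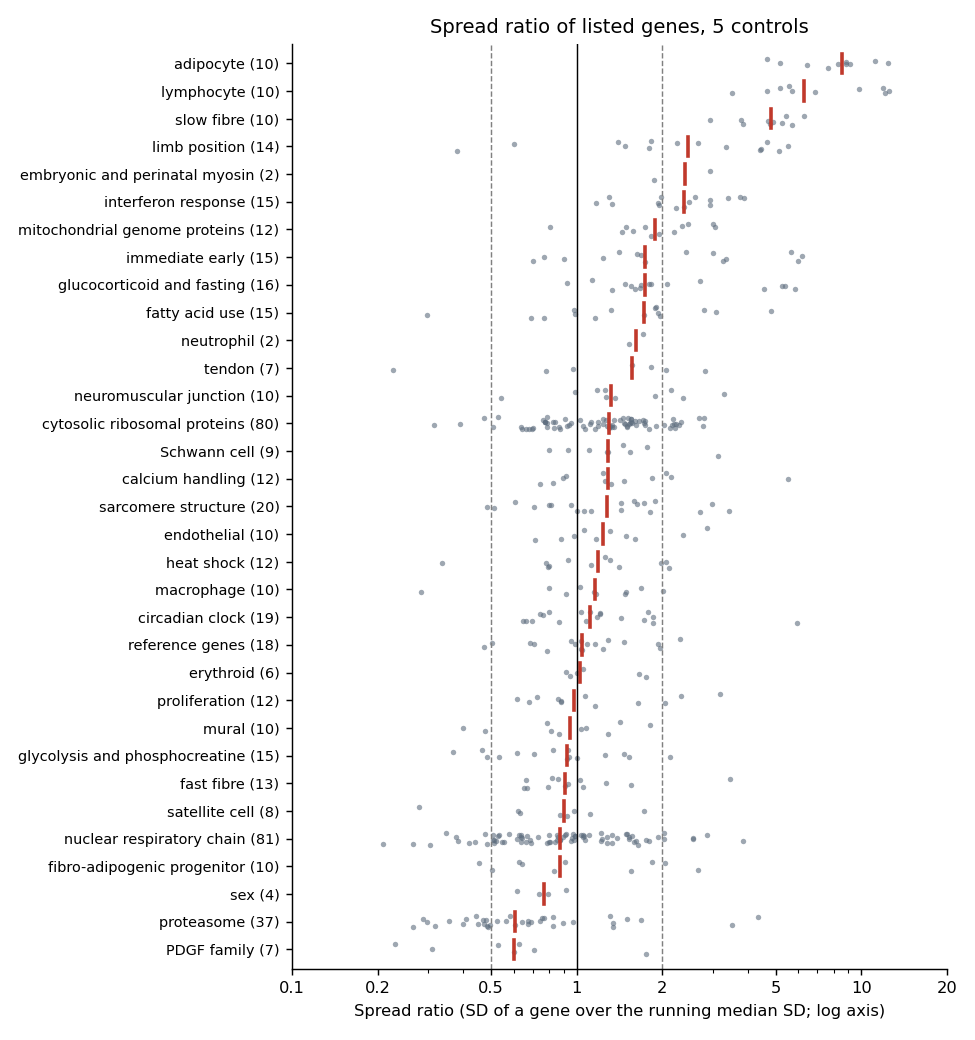
Spread ratio of each gene of 33 lists that had a mean of 10 or more (number in parentheses), on a log axis, with the median of each list in red and dashed lines at 0.5 and 2. Adipocyte, lymphocyte and slow fibre genes all lie above 2, and the medians of the PDGF family and the proteasome are the lowest.

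Immediate early genes, which are induced within minutes of a stimulus and of tissue handling, split the controls. Of 15 members 7 were variable, against 12% of all genes. Fos had 1504, 2109, 683, 478 and 423 normalized counts, Egr1 2489, 2840, 684, 430 and 691, and Fosb 371, 555, 146, 118 and 44. In all 3 genes controls 1 and 2 lay above the other 3 libraries without overlap. The family did not move as a block: Nr4a1, an orphan nuclear receptor, was highest in control 4 (8563) and lowest in control 1 (4100), and Klf4 had a ratio of 0.70.

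The opposite split was seen in some genes of fasting and glucocorticoid signalling. Of 16 members 6 were variable, against 12% of all genes, and they did not share a pattern. Angptl4, a secreted inhibitor of lipoprotein lipase, had 1518, 1338, 1565, 525 and 462. Fbxo32, the ubiquitin ligase atrogin-1, had 106, 164, 614, 432 and 769, and Ddit4, an inhibitor of mTORC1 signalling, 528, 439, 2215, 1175 and 862. In the fatty acid list, Pdk4, the kinase that restrains glucose oxidation, had 4620, 5687, 23366, 27971 and 20084. In Fbxo32, Ddit4 and Pdk4 controls 1 and 2 were the lowest 2 libraries. The mitochondrial uncoupling protein gene Ucp3 followed the same division (2332, 2379, 5757, 6547 and 3676). Cpt1b, the carnitine palmitoyltransferase of muscle, did not: it had 152 to 176 in all 5 (ratio 0.30). This level is low beside other genes of the list, such as Hadha, with a mean of 11290. Whether reads of Cpt1b were lost in counting was not tested.

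Of 19 circadian clock genes 1 was variable, a share near the 12% of all genes. Per1, a clock repressor that also responds to glucocorticoids, had 548, 501, 2738, 2551 and 1180, again lowest in controls 1 and 2. The clock genes Nr1d1 (3884 to 5359) and Dbp (1941 to 3075), which change many-fold over a day, had ratios of 0.70 and 1.21; these were 0.42 for Nr1d1 without control 5 and 0.44 for Dbp without control 3. Interferon-stimulated genes were variable in 9 of 15 cases, against 12% of all genes. Ifit3 had 483, 401, 164, 107 and 208, and Irf7, which amplifies the interferon response, 504, 387, 195, 118 and 365; control 4 was lowest in both. Without control 5, 12 of the 15 were variable.

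Genes of limb position differed between controls 4 and 5 and the rest. Hox genes and Tbx5 keep a record of the embryonic position of a tissue in adult cells; Tbx5 is a gene of the forelimb, and Tbx4 and Pitx1 are genes of the hindlimb. Of 14 such genes 8 were variable, against 12% of all genes. Tbx5 had 94, 74, 81, 11 and 1 normalized counts, and Hoxc8 523, 407, 228, 96 and 61. Hoxd9 had 210, 166, 153, 614 and 577, and Hoxa11 10, 24, 31, 204 and 120. Controls 4 and 5 were thus low in the former pair and high in the latter, without overlap. They were also the libraries with low adipocyte genes; whether tissue position bears on other differences was not tested. Pitx1 was low in all 5 (26 to 46), and Hoxc10, with 1977 to 2281, was stable (ratio 0.38).

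Of 12 mitochondrially encoded protein genes 5 were variable, against 12% of all genes. Of 81 nuclear respiratory chain genes 6 were variable and 10 stable, which is near the 12% and 10.8% of all genes. mt-Nd4, a complex I subunit, had 161618, 147368, 115941, 79172 and 54127 normalized counts, and mt-Co1 815997, 777057, 634787, 462007 and 366035. Control 1 was highest and control 5 lowest in both. Without control 5 the ratio of mt-Nd4 was 1.68, below the line. Atp5g1, a nuclear gene for an ATP synthase subunit, had 9288, 9442, 9151, 10031 and 9494 (0.21), and the complex I gene Ndufa10 7343 to 8182 (0.27). Ndufs1, of the same complex, had 5886, 8325, 14955, 16853 and 13101 (2.56), and Cox6a1, a cytochrome oxidase subunit whose paralogue serves striated muscle, 1925, 1535, 1596, 647 and 809 (3.84). The low counts of mt-Co2 (596 to 1456) and mt-Co3 (491 to 1206) are uncertain, since nuclear copies of these genes can share their reads.

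Among the housekeeping systems, the proteasome was the most even. Of 37 subunit genes 15 were stable, against 10.8% of all genes, and the median ratio was 0.61. Psmb7, a catalytic subunit, had 6289 to 7085. The 2 variable members were immunoproteasome genes, of which Psmb8 had 450, 348, 242, 149 and 835, highest in control 5 (ratio 4.34, and 3.17 without it). Of 80 cytosolic ribosomal protein genes 12 were variable, which is near the 12% of all genes, but only 3 were stable, against 10.8%. Their median ratio was 1.30. Of 15 glycolysis and phosphocreatine genes 3 were stable, against 10.8% of all genes. Among them was Gpi1, glucose phosphate isomerase, with 32997 to 38183 (ratio 0.37). Only Gys1, muscle glycogen synthase, was variable in this list (6087, 7938, 13170, 14099 and 11637, ratio 2.12, or 1.81 without control 1).

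Of 18 genes in common use as references for quantitative PCR, 1 was variable and 1 stable, against 12% and 10.8% of all genes. B2m, the light chain of MHC class I, had 3891, 2788, 2231, 1532 and 3396 (ratio 2.31, and 1.65 without control 4). Rplp0, of the large ribosomal subunit, had 16622, 18707, 16907, 20305 and 18980 (0.47, and above 0.5 without control 1, 0.52, or control 5, 0.51). Gapdh had 235762 to 322098 and a ratio of 0.71, Hprt 611 to 789 (0.79) and Actb 8590 to 13147 (1.04). Tbp had 173 to 270, with a ratio of 0.99 that was 0.46 without control 4.

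The most even genes were mostly of modest level and diverse function. Raph1 had 784, 784, 797, 792 and 792 normalized counts, a coefficient of variation of 0.718%, which is less than Poisson counting would give if a normalized count were a read. Gabarap, a protein of autophagosomes, had 3095 to 3233, and Hdac5, a histone deacetylase that represses MEF2, 2711 to 2837. Tra2b, a splicing regulator, had 1163 to 1220, and Nudt21, of the pre-mRNA cleavage complex, 365 to 383. Rescaled to equal totals, Hdac5 and Tra2b were no longer stable: their ratios rose from 0.13 to 0.53 and 0.57. These genes were chosen as the extremes of 15376, and in libraries that were not used to choose them most were less even. In the knockout Raph1 had a ratio of 1.07 and in D489V 0.64, and for Gabarap these were 0.68 and 0.56.

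Among the most variable genes were pseudogenes and genes that were nearly absent from some libraries. Rps2-ps13, a processed pseudogene of a ribosomal protein on the X chromosome, had the highest ratio of the named genes (22.02), with 7, 26, 6321, 699 and 10. Its parent gene Rps2 had 26558, 28890, 13651, 30051 and 29170, so control 3 was high in the pseudogene and low in the parent. Reads of near-identical copies can be assigned to either, and both values are uncertain. Ifi202b, of the interferon-inducible Ifi200 family, had 253, 186, 11, 0 and 278, and H2-Q10, a secreted MHC class I gene with close paralogues, 570, 508, 40, 16 and 11. The noncoding transcript AI506816 (109, 92, 2461, 2831 and 874) and the processed pseudogene Gm6123 (15, 36, 795, 854 and 33) were highest in controls 3 and 4. By annotation, 11.7% of protein-coding genes and 17.2% of processed pseudogenes were variable, and all 8 immunoglobulin constant genes were.

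The libraries that differed were not the same for all variable genes. When the 5 values of each variable gene were split at their largest gap on the log2 scale, 29 different splits occurred. Control 5 alone lay above the gap in 439 of 1852 genes (23.7%), and controls 3, 4 and 5 in 276 (14.9%). Controls 1, 2 and 3 lay above it in 223 (12.04%), as for Ucp1 and Adipoq, and controls 1 and 2 in 187 (10.1%), as for Fos. Control 2 was the library farthest from the others in only 3.62% of variable genes, control 1 in 32.1% and control 5 in 36.0%. Controls 1 and 2 were the closest pair, with a median absolute difference of 0.20 on the log2 scale and 604 genes that differed by 2-fold or more. Controls 1 and 4 were the most distant by that count, with 2438 genes.

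The promoters of variable genes held fewer CG dinucleotides than those of stable genes. The 1646 windows of variable genes had a median of 12.5 CG dinucleotides and the 1609 windows of stable genes 20. TATAAA in its window was found in 2.49% of the former and 0.497% of the latter, against 1.29% over all genes with a mean of 10 or more, and GGGCGG in 47.5% and 62.3%. The Fos window printed above holds TATAAA but has 20 CG dinucleotides, as many as the median of stable genes. The table matched 1279 genes of each class by symbol, of 1852 and 1666, and genes with several starts count more than once.

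The control spread recurred in part in the other genotypes. Within the knockout libraries 12.5% of genes tested were variable and 9.19% stable, and within D489V 9.03% and 10.6%. Of 1769 control-variable genes that could be tested in the knockout, 895 (50.6%) were also variable there, and of 1699 that could be tested in D489V, 705 (41.5%). Both shares lie well above the background of the group. Stable genes recurred less, closer to their background: 230 of 1629 (14.1%) in the knockout and 391 of 1641 (23.8%) in D489V. The slow fibre genes were variable in 10 of 10 cases in both groups, and Myh7 ranged from 1581 to 94986 in the knockout and from 16602 to 93311 in D489V. Of the adipocyte genes 6 of 10 were variable in the knockout and 10 of 10 in D489V, and of the lymphocyte genes 10 and 1. Interferon genes, 9 of them variable in controls, had 1 variable in the knockout and 3 in D489V. For the mitochondrially encoded protein genes, 5 in controls, these numbers were 8 and 0. Limb position genes, 8 in controls, had 8 and 7, and immediate early genes, 7 in controls, had 9 and 6. Of the 15376 genes, 307 were variable in all 3 groups, led by Myh2 in abundance, and 61 were stable in all 3. The shares called in controls, knockout and D489V were 12, 12.5 and 9.03% for variable and 10.8, 9.19 and 10.6% for stable. How many genes these shares alone would place in all 3 was not computed. The 61 included Hnrnpk (4199 to 4659 in controls), Chd4 (5326 to 5943), Ctnnb1 (7585 to 8521) and Cct7 (3855 to 4378), which were singled out after their values were seen. They encode an RNA-binding protein, a chromatin remodeller, beta-catenin and a chaperonin subunit.

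Whether controls were more spread out than the mutants was tested with a value per library, the median over 15389 genes of the absolute log2 distance from its own group mean. This was 0.26, 0.15, 0.18, 0.20 and 0.17 in controls 1 to 5, with a mean of 0.193 ± 0.0392 (SD, n = 5). The knockout mean was 0.158 ± 0.0147 and the D489V mean 0.161 ± 0.0353. The control excess over the knockout was 0.0350, with a two-sided exact permutation p = 0.0714 (0.143 after Benjamini-Hochberg adjustment over the 2 tests). Over D489V it was 0.0314 (exact permutation p = 0.238, adjusted 0.238). Neither difference passed 0.05, in a design whose smallest possible p is 0.00794. Without control 1, the farthest library, the excess was 0.00656 over the knockout and 0.00293 over D489V. It passed an unadjusted 0.05 without knockout library 3 (0.0442) or 5 (0.0466), and without D489V library 3 (0.0474), each at an exact permutation p = 0.0317. When a library is left out, its group mean is recomputed, which by itself lowers the distances of the libraries left in that group. The excesses with a library left out are therefore not like for like with the main ones.

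**Figure D5:**
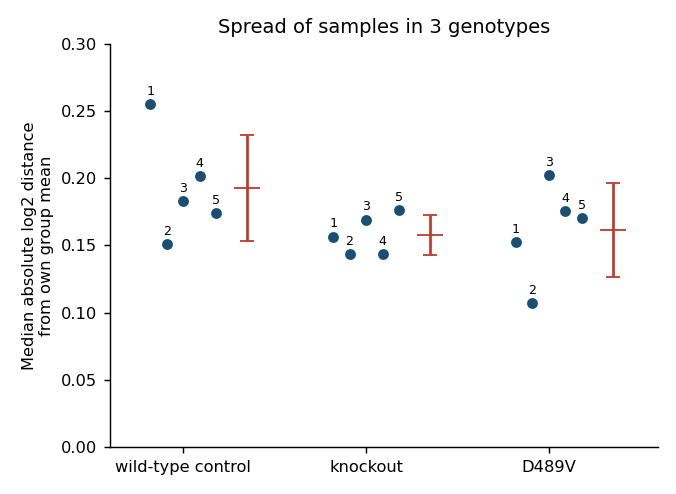
Median absolute log2 distance of each library from its own group mean over 15389 genes, for 5 libraries in each of 3 genotypes; the red marks give the mean and SD. Control 1 lies at 0.26, above all other libraries, and the remaining controls overlap both mutant groups.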

How the data were processed

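Poly(A) RNA of 15 mouse muscle samples was sequenced from directional libraries, per the labels' protocols. The submitters' processing notes name Trim Galore 0.6.0, STAR 2.7.0e, DESeq2 1.26.0 and GRCm38. The deposited values are a score: normalized counts that the authors rounded to whole numbers, listed for 55536 genes in 2 tables whose control columns are identical. Reads were not recovered from them. Names, types and exon lengths came from GENCODE M21, which matched all genes. Genes with a mean of 10 or more over the 5 controls were kept. Spread was computed on log2(value + 1) as described in the report (Python 3.11.15, pandas 2.3.3, scipy 1.17.1) and tested on simulated data. Named genes were the 20 most abundant and 10 highest per kilobase, the highest and the most and least variable of each list, and the genes of highest and lowest ratio with a mean of 100 or more. Members and lists were chosen with earlier results of these data known. Alternatives changed the pseudocount, minimum mean, scaling, measure and window, and left out each library in turn.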

Additional observations from a re-analysis of the deposited data

Results flagged for a closer look

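The sets of 5 values examined were list scores, shares, library distances and named genes, 155 sets together. In 10 an extreme library lay farther from its neighbour than 0.71 of the whole range, Dixon's 95% critical value for 5 samples. For independent sets chosen without regard to their values, chance would give about 7.75. Many sets here share genes or were named for their spread in these data, so that number is no fair reference for the 10. Control 5 was the extreme library in 7 of the 10. It was high in the lymphocyte list score (gap 0.724 of the range), in the Myh7 share of adult myosin (0.722), and in Cd22 (0.772), Pax5 (0.789), Ighd (0.774) and Marco (0.824). It was low in Ndufa10 (0.820). The lymphocyte score, Cd22, Pax5, Ighd and Marco are not separate results, since control 5 was already described above as high in lymphocyte genes. Control 4 was high in the fast fibre list score (0.727), at a mean log2 value of 18.79 against 18.45 to 18.54 in the others. Control 1 was low in Nudt21 (0.837), a gene whose 5 values lie between 365 and 383. Control 3 was low in Rps2 (0.843), at 13651 normalized counts against 26558 to 30051 in the others, and it was the library high in the pseudogene Rps2-ps13.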

How the results depend on the processing

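The counts of genes with a mean of 10 or more, of variable genes and of stable genes stayed within 1.5 times the main count under every alternative run, and the abundance and Myh4 shares within 1 SD. Variable genes numbered 1457 to 2090 and stable genes 1357 to 2196. The identity of the genes was less firm: rescaling to equal totals kept 932 of the 1666 stable genes and 1639 of the 1852 variable genes, and leaving out control 5 kept 1277 of the variable genes. For the lymphocyte list the number of variable members was 1 to 10 over the fits that left out a library, with 1 without control 5. For the spread of controls against the knockout, leaving out a library gave excesses of 0.00656 to 0.0466, and against D489V 0.00293 to 0.0474. With a replicate block, in which same-numbered libraries were paired and signs flipped, the same excesses of 0.0350 and 0.0314 had exact permutation p = 0.125 and 0.188, where the smallest possible is 0.0625. Numbers did not pair the libraries: 2 of 5 same-numbered pairs deviated together at a correlation over 0.1 in each comparison, and 1 of 5 controls correlated best with its own number. The read depth behind a normalized count is unknown, so the counting error of low genes could not be separated from their spread.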

Other observations

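Scd1, a fatty acid desaturase, had 25903, 23937, 66356, 3741 and 4107 normalized counts, and Fasn, fatty acid synthase, 30000, 24311, 48820, 3459 and 2679. Both were variable in all 3 genotypes and were singled out after their values were seen. Amd1, of polyamine synthesis, had 2463, 3385, 7966, 18323 and 21161, and Fhl1, a LIM protein of muscle, 8146, 9574, 16436, 28959 and 25513. These 2 genes were highest in controls 4 and 5, where Scd1 and Fasn were lowest.

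Further abundant variable genes were Pde4dip, a scaffold of phosphodiesterase (34142, 48028, 79288, 75981 and 70814), and Gm42418, a noncoding transcript (33724, 87395, 42008, 52791 and 43470). Gm42418 ranged from 20787 to 562849 in the knockout and from 23666 to 171496 in D489V. The annotated microRNA Gm23935 kept the same order of control libraries, with 12848, 25601, 15140, 19349 and 16254. What lies behind this was not tested. Trdn, the calcium release protein triadin, had 105588, 85911, 58712, 62965 and 41449, and Srl, the lumenal protein sarcalumenin, 24521, 34661, 58020, 59641 and 45856. Control 1 was thus the highest library for Trdn and the lowest for Srl, although both encode proteins of the sarcoplasmic reticulum.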
